A study of Rattus norvegicus with 10 samples.

Results

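The mucosal defence and secretory genes described here are 7 rat genes, Reg3b, Lcn2, Il17b, Pigr, Csap1, Scgb1d2-ps1 and Clca1, measured in mammary gland by 1 probe set each. All probe sets that the platform annotation names by 1 of these symbols were taken, which gave 7 of the 15866 probe sets other than controls, or 7 of the 10411 genes that a single symbol names. The genes were chosen by their signals on these arrays, with their values by diet known, so their differences between diets are given as a description and carry no test. Of the 7 probe sets, 6 passed the filter on dim signal, which left out the lowest 40% of probe sets by mean log2 signal, and Pigr did not.

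The animals were Sprague-Dawley rats, all female and studied at postnatal day 50, and each had received 1 of 3 purified diets. The title of the series asks how SPI or genistein alters gene expression in the mammary epithelium. The CAS diet is represented by 3 arrays (replicates 1, 2 and 3), the SPI diet by 4 (replicates 2, 3, 4 and 5) and the GEN diet, named for the soy isoflavone genistein, by 3 (replicates 1, 3 and 5). The label CAS means casein and SPI means soy protein isolate, which is known of the study but not spelled out by the labels. Every array carried RNA of the #4 mammary gland pooled from 2 animals, and no group carried a transgene or another treatment that the labels name. The labels speak of 3 replicate labelled targets made from each pool without saying which arrays share one, so the spread between arrays may be partly technical. The SEs and p-values below treat the arrays as independent and would be too small if arrays share a pool. The labels also call the source epithelial cells, while the protocol speaks of gland and the design text mentions colon. Of 23 luminal epithelial markers on the array, 18 were bright enough to be tested, among them Krt8 and Krt18. The milk genes Csn2, Lalba and Wap were all past the filter. Fibroblast markers (14 tested of 14 on the array), adipocyte markers (10 of 13) and macrophage markers (14 of 16) were present too. The RNA was thus that of a gland with its stroma.

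Mucosal surfaces and the ducts of glands are guarded by secreted proteins that bind bacteria, withhold iron or carry antibodies across the epithelium, and by mucus that these cells release. The mammary epithelium is a secretory epithelium of this kind and places antimicrobial proteins and immunoglobulin A into milk. Cytokines of the IL-17 and IL-22 families, acting through NF-kB and STAT3, are well-known inducers of such genes in gut and airway epithelium.

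Values are MAS5 signals on a linear scale, in which each array is scaled as a whole, and a log2 difference of 1 is a doubling. With limma across 9520 probe sets and Benjamini-Hochberg adjustment, 0 probe sets had an adjusted p under 0.05 in SPI against CAS, GEN against CAS or SPI against GEN, a background of 0% in each. At an unadjusted p under 0.05 there were 459, 561 and 757 probe sets in the same order, against 449, 537 and 761 without an intensity trend and 387, 547 and 673 without eBayes, which also called 0 after adjustment. By chance about 1 in 20 of the 9520 probe sets would reach that unadjusted p. The ratio of the 3' to the 5' beta-actin probe sets, a measure of RNA quality, lay between 4.06 and 5.04 on CAS, between 2.94 and 7.77 on SPI and between 2.83 and 5.15 on GEN, with SPI replicate 4 the highest.

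**Figure D1:**
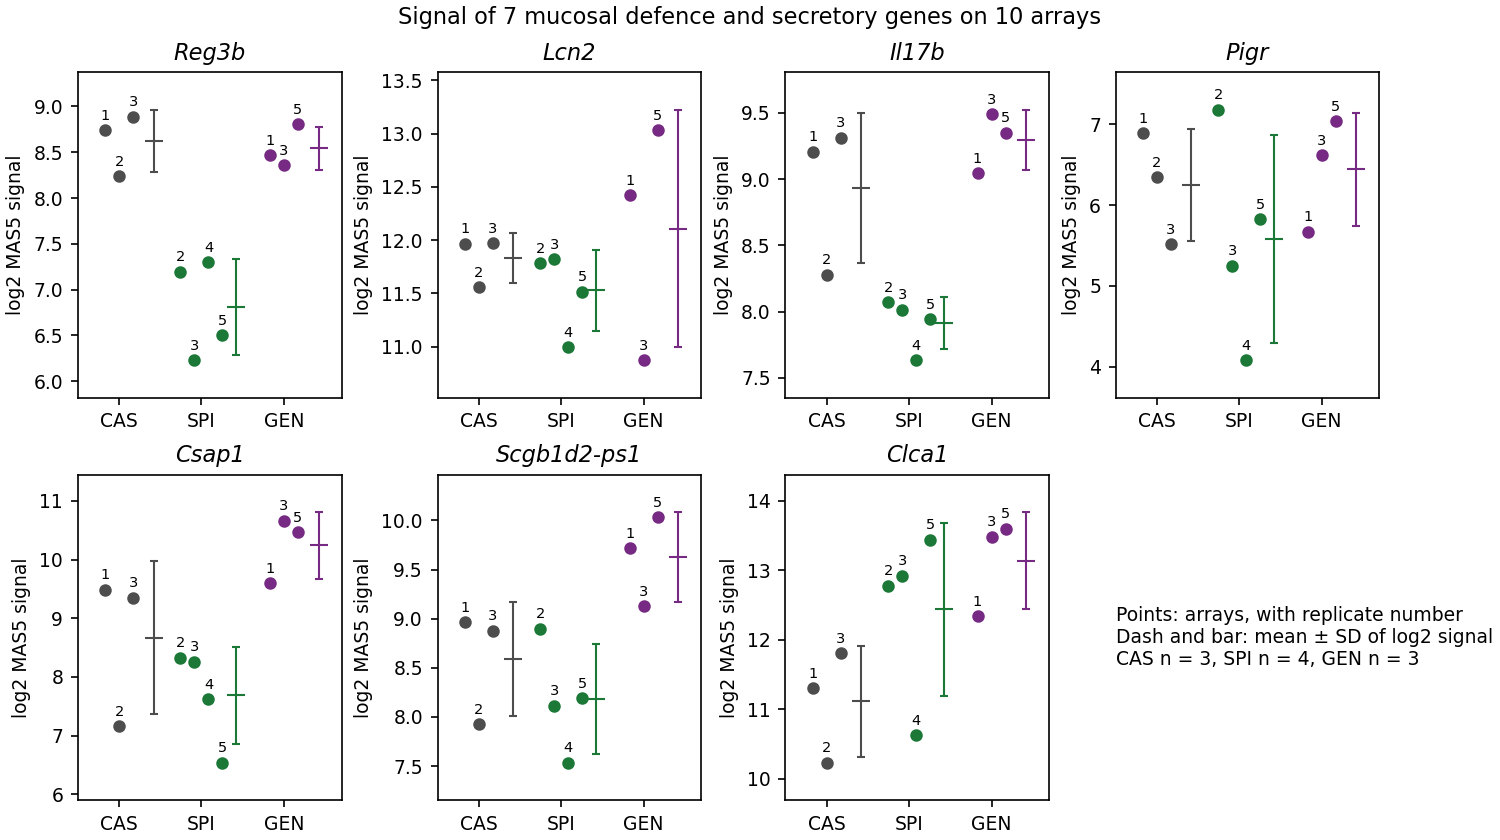
Log2 MAS5 signal (vertical axis, 1 panel per gene) of the 7 genes on the 10 arrays, grouped by diet; points are arrays with their replicate number, and the dash and bar are the mean and SD over arrays. The 4 SPI arrays lie below every CAS and GEN array for Reg3b and Il17b, and the 3 GEN arrays lie above every CAS array for Csap1, Scgb1d2-ps1 and Clca1.

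Relative to CAS, the genes whose arrays did not overlap were different ones for SPI and for GEN. The SPI arrays did not overlap the CAS arrays in Reg3b and Il17b, both lower on SPI, which is 2 of the 6 genes past the filter against 4.60% of all probe sets tested. The GEN arrays did not overlap the CAS arrays in Csap1, Scgb1d2-ps1 and Clca1, all higher on GEN, which is 3 of 6 against 11.1% of all. Between SPI and GEN there was no overlap in Reg3b, Il17b, Csap1 and Scgb1d2-ps1, all lower on SPI, which is 4 of 6 against 8.50% of all. Since these values chose the genes, nothing is read from those shares. Pigr overlapped in all 3 comparisons. SPI against CAS and GEN against CAS share the CAS arrays, so a low or high CAS array moves both.

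Among the defence genes, Reg3b encodes a secreted C-type lectin that binds bacteria at mucosal surfaces, also known as pancreatitis-associated protein. The promoter of Reg3b is shown because this gene had the lowest signals on SPI relative to CAS of the 7. The window covers 250 bases before to 50 after the annotated start, on the plus strand of chr4:112419526-112419825 in the RefSeq annotation of rat build GRCr8, and capitals mark a TATA box (TATAAA) and a STAT site (TTCNNNGAA).
Reg3b: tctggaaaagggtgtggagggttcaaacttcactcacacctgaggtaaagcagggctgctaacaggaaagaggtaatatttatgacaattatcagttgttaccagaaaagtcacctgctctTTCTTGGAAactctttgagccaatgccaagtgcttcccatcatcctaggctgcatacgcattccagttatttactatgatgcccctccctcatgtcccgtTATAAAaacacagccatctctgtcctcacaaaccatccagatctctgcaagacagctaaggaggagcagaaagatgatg
The first base of the TATA box lies at -29 and that of the STAT site at -129 from the start. Searched on both strands, TATAAA occurs in 14.2% and TTCNNNGAA in 8.87% of 33469 rat promoters of the same 300 bases. These matches describe the sequence and show no binding.

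Reg3b (probe set 1368238_at) had signals of 427.1, 302.0 and 474.3 on the CAS arrays. On the SPI arrays the signals were 146.5, 75.0, 157.7 and 90.8. On the GEN arrays they were 354.3, 327.6 and 448.1. The highest SPI array thus lay below the lowest CAS and the lowest GEN array, while CAS and GEN overlapped. The log2 difference was -1.81 ± 0.27 (SE of the fit over 10 arrays) for SPI against CAS, a 3.52-fold lower geometric mean on SPI. It was -1.74 ± 0.27 for SPI against GEN and -0.08 ± 0.29 for GEN against CAS, the last between -0.27 without CAS replicate 2 and 0.06 without CAS replicate 3. All 4 SPI signals lay under 162, the lowest geometric mean among the probe sets tested, so the size of the difference rests on dim values. In a whole gland, fewer cells that express a gene and less RNA of it per cell cannot be told apart, here and for every gene below.

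Lcn2 encodes lipocalin-2, which binds the siderophores that bacteria use to take up iron. Its probe set (1387011_at) read 4003.5, 3014.5 and 4010.0 on CAS, and 3520.0, 3612.7, 2038.0 and 2929.6 on SPI. On GEN it read 5488.2, 1873.4 and 8373.8. The GEN diet held both the lowest and the highest of the 10 arrays, a 4.47-fold range within the diet, and all 3 diets overlapped. The log2 difference from CAS was -0.30 ± 0.38 on SPI and 0.28 ± 0.41 on GEN, and SPI against GEN gave -0.58 ± 0.38. Leaving out GEN replicate 5 turned GEN against CAS to -0.18, and leaving out GEN replicate 3 raised it to 0.90. SPI against GEN was -0.12 without GEN replicate 5 and -1.20 without GEN replicate 3. SPI against CAS was -0.13 without SPI replicate 4.

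Il17b encodes a secreted cytokine of the IL-17 family. Its probe set (1376445_at) read 590.2, 310.6 and 636.1 on CAS. On SPI it read 269.2, 258.8, 198.4 and 246.1, and on GEN 528.2, 719.2 and 651.7. The SPI arrays were close together, with an SD of 31.3 around a mean of 243, and all lay below the lowest CAS array, replicate 2. The log2 difference was -1.02 ± 0.23 for SPI against CAS and -1.38 ± 0.23 for SPI against GEN. For GEN against CAS, whose arrays overlapped, it was 0.36 ± 0.25, and 0.04 without CAS replicate 2.

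Pigr encodes the polymeric immunoglobulin receptor, which carries immunoglobulin A across the epithelium and is released with it as secretory component. The probe set (1371099_at) was dim, with a geometric mean of 65.9 over the 10 arrays. It read 118.9, 81.4 and 45.8 on CAS, 145.0, 38.1, 16.9 and 56.7 on SPI, and 50.9, 98.3 and 131.5 on GEN. The SPI arrays held both the lowest and the highest value, 8.58-fold apart, and the diets overlapped throughout. From a fit of all probe sets, the log2 difference from CAS was -0.67 ± 0.64 on SPI and 0.19 ± 0.69 on GEN, and SPI against GEN gave -0.86 ± 0.64. Leaving out 1 array moved SPI against CAS between -1.20 (without SPI replicate 2) and -0.17 (without SPI replicate 4), and SPI against GEN between -1.39 and -0.36 without the same arrays. GEN against CAS ran from -0.18 without CAS replicate 3 to 0.58 without GEN replicate 1.

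Among the secretory genes, Csap1 encodes common salivary protein 1, a secreted protein first known from salivary glands. Its promoter is shown beside that of Clca1 below because both genes had higher signals on GEN than on CAS with no overlap. The Csap1 window lies on the plus strand of chr10:13418692-13418991 (GRCr8, 250 bases before to 50 after the start), and no capitals appear because none of the motifs searched was found in it.
Csap1: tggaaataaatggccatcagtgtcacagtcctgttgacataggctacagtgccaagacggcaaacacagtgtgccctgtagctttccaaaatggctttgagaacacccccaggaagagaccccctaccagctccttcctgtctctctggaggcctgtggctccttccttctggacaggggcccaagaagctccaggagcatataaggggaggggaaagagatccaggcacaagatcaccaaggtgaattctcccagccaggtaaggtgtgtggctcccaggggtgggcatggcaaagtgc
The motifs were TATAAA, TTCNNNGAA, the estrogen response element half-site GGTCA and the NF-kB consensus, each on both strands, and their letters being missing from this window says nothing about the factors.

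The Csap1 probe set (1367968_at) read 719.0, 143.1 and 652.2 on CAS, with replicate 2 far below the other two. It read 321.2, 306.5, 197.2 and 93.1 on SPI. On GEN it read 775.1, 1621.9 and 1417.8. Every GEN array was above every CAS and SPI array, and the whole range over 10 arrays was 17.4-fold, the widest of the 7 genes. The log2 difference was 1.58 ± 0.58 for GEN against CAS, or 2.98-fold, and -2.56 ± 0.54 for SPI against GEN, so that the geometric mean on GEN was 5.88-fold that on SPI. For SPI against CAS it was -0.98 ± 0.54, with CAS replicate 2 inside the SPI range. Without CAS replicate 2, SPI against CAS became -1.73 and GEN against CAS became 0.82, while without CAS replicate 1 the former was -0.57.

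Scgb1d2-ps1 is annotated as a pseudogene of the secretoglobin Scgb1d2, a small secreted protein of glandular epithelia. The probe set (1373762_a_at) read 499.9, 243.0 and 469.9 on CAS. It read 476.5, 276.9, 185.6 and 292.4 on SPI, and 843.3, 558.6 and 1046.0 on GEN. All 3 GEN arrays lay above all 7 others, whereas CAS and SPI overlapped. The log2 difference was 1.04 ± 0.35 for GEN against CAS, or 2.05-fold, -1.44 ± 0.33 for SPI against GEN and -0.40 ± 0.33 for SPI against CAS. The last was -0.74 without CAS replicate 2 and -0.19 without SPI replicate 4. The probe set named Scgb1d2 itself was far below the filter, between 1.1 and 28 on all 10 arrays. Which of the related transcripts the Scgb1d2-ps1 probe set binds was not tested.

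Clca1 encodes a secreted protein of goblet cells that acts on calcium-activated chloride channels and is part of mucus. Its promoter lies on the minus strand of chr2:236624665-236624964 (GRCr8, the same window) and holds 1 GGTCA, in capitals, whose first base is at -114.
Clca1: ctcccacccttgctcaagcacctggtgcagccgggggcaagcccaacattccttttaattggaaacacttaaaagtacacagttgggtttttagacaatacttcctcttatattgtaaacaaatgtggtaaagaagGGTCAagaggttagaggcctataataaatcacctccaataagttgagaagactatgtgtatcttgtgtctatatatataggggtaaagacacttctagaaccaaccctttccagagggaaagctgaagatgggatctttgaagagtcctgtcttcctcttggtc
Among all 33469 promoters, 40.5% hold GGTCA on either strand. The promoters of Il17b and Pigr hold GGTCA too, at -207 and -14, and that of Lcn2 holds the NF-kB consensus at -242, which 7.51% of promoters have. Of the 7 genes, 6 were matched by Entrez gene ID to a RefSeq promoter.

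The Clca1 probe set (1390238_at) read 2524.5, 1204.2 and 3579.7 on CAS. On SPI it read 7018.1, 7743.6, 1578.5 and 11116.8. On GEN it read 5165.0, 11456.9 and 12365.2. It was the only gene of the 7 with a higher mean on both SPI and GEN than on CAS by over 1 log2 unit. Of the SPI arrays, 3 were above all CAS arrays, and SPI replicate 4 lay within the CAS range. The log2 difference was 2.02 ± 0.61 for GEN against CAS, or 4.07-fold, and 1.33 ± 0.57 for SPI against CAS. Without SPI replicate 4 the latter was 1.93, and without CAS replicate 2 it was 0.89. SPI against GEN, whose arrays overlapped, gave -0.70 ± 0.57, with -0.09 without SPI replicate 4 and -1.10 without GEN replicate 1. The name of this probe set is that of the platform annotation, and whether it also binds transcripts of related Clca genes was not tested.

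**Figure D2:**
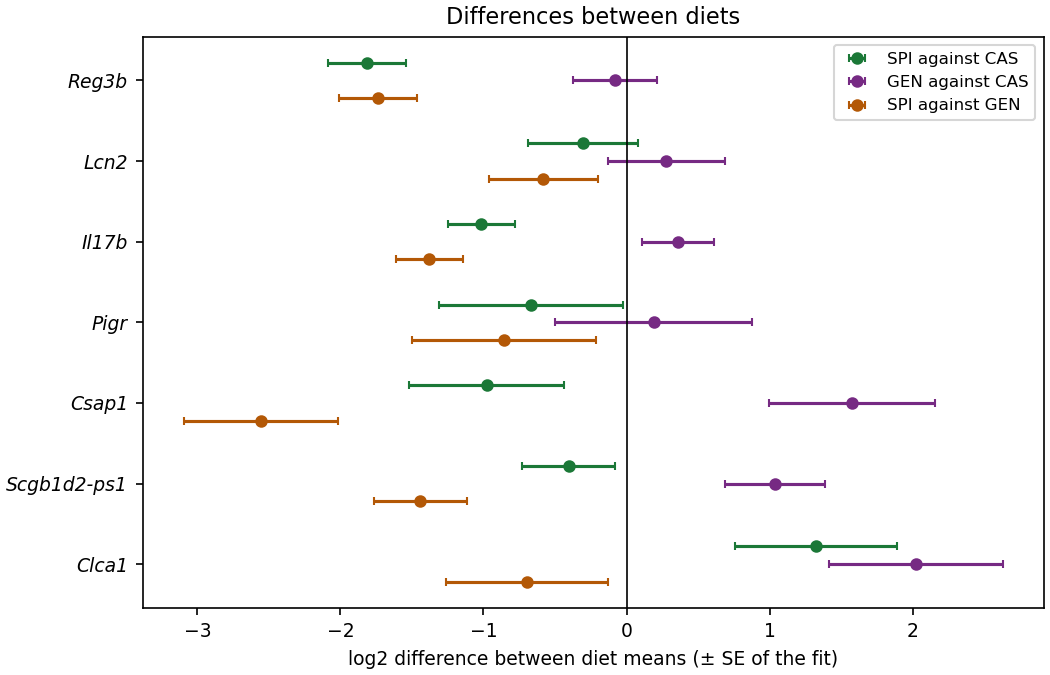
Log2 difference between diet means (horizontal axis) of the 7 genes in SPI against CAS, GEN against CAS and SPI against GEN; points are the fitted differences and bars their SE. Reg3b shows -1.81 and -1.74 in the comparisons with SPI and -0.08 for GEN against CAS, while Clca1 shows 1.33 and 2.02 against CAS.

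The order of the diets differed between genes. From the highest mean log2 signal down, it was CAS, GEN, SPI for Reg3b and GEN, SPI, CAS for Clca1. It was GEN, CAS, SPI for Lcn2, Il17b, Pigr, Csap1 and Scgb1d2-ps1. The neighbours in this order whose arrays overlapped were CAS and GEN for Reg3b and Il17b, SPI and CAS for Csap1 and Scgb1d2-ps1, and all neighbours for Lcn2, Pigr and Clca1.

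Arrays of the same diet differed widely for these genes. The pooled SD within diets on the log2 scale was 0.99 for Pigr and for Clca1, 0.93 for Csap1, 0.66 for Lcn2 and 0.54 for Scgb1d2-ps1, against a median of 0.245 and a 95th percentile of 0.529 over all probe sets tested. It was lower for Reg3b (0.41) and Il17b (0.35). Pigr lay below the filter that the probe sets tested had passed, so its SD stands beside those of brighter probe sets. The low arrays were often the same ones. CAS replicate 2 had the lowest CAS signal in 6 of the 7 genes, SPI replicate 4 the lowest SPI signal in 5, and GEN replicate 5 the highest GEN signal in 5. How often this holds for other genes was not counted.

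Covariation of arrays within a diet was not used to choose the genes. After the mean of each diet was removed, the correlation was positive in 20 of the 21 pairs of genes, with a median Pearson r of 0.335. The pairs share genes and arrays, and pairs of other genes were not examined, so nothing is read from that share. In exact two-sided permutation tests of arrays within diets, 0 of 21 pairs passed an adjusted p of 0.05 and 3 had an unadjusted p under 0.05 by Pearson r, against 2 by Spearman rho. Il17b and Csap1 had r = 0.812 (exact permutation p = 0.043, adjusted over 21 pairs 0.300) and rho = 0.903 (exact permutation p = 0.016, adjusted 0.340). Without SPI replicate 4 and GEN replicate 3, the arrays farthest from the median of Il17b, r was 0.850 (exact permutation p = 0.042). Without CAS replicate 2 alone it was 0.502 (exact permutation p = 0.250). Lcn2 and Scgb1d2-ps1 had r = 0.728 (exact permutation p = 0.0093, adjusted 0.194) and rho = 0.673 (exact permutation p = 0.036, adjusted 0.377). Without GEN replicates 3 and 5, r was 0.833, but the single GEN array left then equals its diet mean and adds nothing. Il17b and Clca1 had r = 0.747 (exact permutation p = 0.021, adjusted 0.219) and rho = 0.515 (exact permutation p = 0.190, adjusted 0.664). Without SPI replicate 4 and GEN replicate 3, r was 0.812 (exact permutation p = 0.125). The only negative value, -0.242, was that of Reg3b with Clca1 (exact permutation p = 0.738, adjusted 0.775), and without SPI replicate 4 it was 0.352. Reg3b and Scgb1d2-ps1 had r = 0.368 (exact permutation p = 0.402, adjusted 0.649), and 0.896 without SPI replicate 4 (exact permutation p = 0.0093, adjusted 0.146). That r was 0.172 without SPI replicate 2 and 0.161 without CAS replicate 2. The adjustment does not cover the choice of the array left out. The smallest p that these permutations can give with all 10 arrays is 0.00116.

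**Figure D3:**
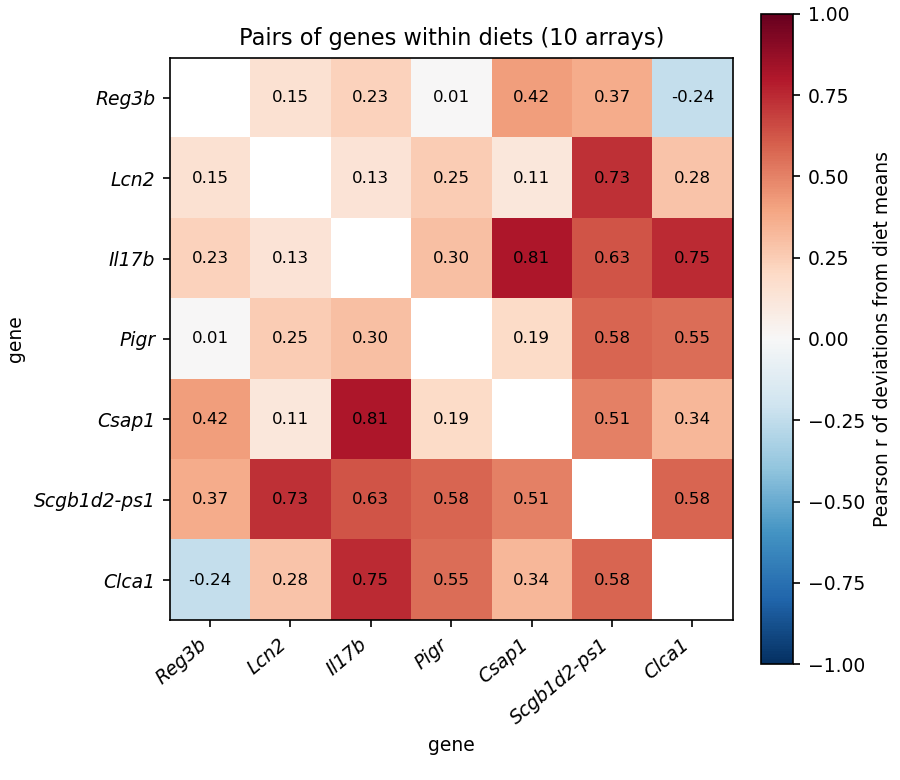
Pearson r (colour and printed value) between each pair of the 7 genes over 10 arrays, after subtracting each diet's mean log2 signal; both axes list the genes. The highest values are 0.81 for Il17b with Csap1, 0.75 for Il17b with Clca1 and 0.73 for Lcn2 with Scgb1d2-ps1, and Reg3b with Clca1 is the 1 negative pair.

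Markers of luminal epithelium were low on the SPI arrays and high on the GEN arrays, as several of these genes were. Of the 18 luminal markers tested, which include the keratins Krt8 and Krt18 and the adhesion molecule Epcam, 18 had a lower mean on SPI than on GEN, with a median log2 difference of -0.68 against 0.01 over 7119 genes tested. Of the same 18, 16 were lower on SPI than on CAS (median -0.30) and 15 higher on GEN than on CAS (median 0.34). None passed the adjusted p of limma, and 10, 4 and 4 had an unadjusted p under 0.05 in these comparisons. Over all 7119 genes tested, 556, 356 and 420 had such a p in the same order, the background for every list here. The mean log2 signal of the 18 was 9.80 to 10.41 on CAS, 9.19 to 10.19 on SPI and 10.26 to 10.70 on GEN, and their summed signal 20327 to 33250, 13578 to 26730 and 28810 to 39499. SPI replicate 4 was the lowest SPI array, CAS replicate 2 the lowest CAS array and GEN replicate 5 the highest GEN array, as in most of the 7 genes. No luminal marker was at 0, although the estrogen receptor gene Esr1 was dim, with means of 11.2 on CAS, 14.2 on SPI and 14.4 on GEN. Of 10 basal and myoepithelial markers tested, 6 were higher and 4 lower on SPI than on CAS (median 0.15). Of the same 10, 9 were higher on GEN than on CAS (median 0.16) and 6 lower on SPI than on GEN (median -0.25). Of these basal markers, 0 passed the adjusted p of limma, and 1, 2 and 2 had an unadjusted p under 0.05 in these comparisons.

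With the luminal marker mean as a covariate, a setting added after the data were seen, the log2 difference of Reg3b was -1.80 for SPI against CAS and -1.70 for SPI against GEN, near the values without it. For SPI against GEN, that of Csap1 became -1.75, that of Il17b -0.97 and that of Scgb1d2-ps1 -0.59. Lcn2, Pigr and Clca1 changed sign in this comparison, to 0.14, 0.56 and 0.66. The luminal means of the SPI arrays (9.19 to 10.19) and the GEN arrays (10.26 to 10.70) did not overlap. The adjusted values of SPI against GEN, that of Reg3b included, thus rest on extrapolation, and the covariate cannot be well separated from diet there. For GEN against CAS, Clca1 was at 1.38, Csap1 at 1.20 and Scgb1d2-ps1 at 0.63, and Lcn2 and Pigr changed sign, to -0.06 and -0.48. For SPI against CAS, Il17b was at -0.80, Csap1 at -0.56 and Clca1 at 2.04, and Scgb1d2-ps1, Lcn2 and Pigr changed sign, to 0.04, 0.07 and 0.08. The milk genes were high on GEN: 13 of 14 were higher on GEN than on CAS (median 0.74) and 14 of 14 lower on SPI than on GEN (median -0.57), with 8 and 9 at an unadjusted p under 0.05 in limma and 0 after adjustment. Their mean log2 signal was 10.97 to 11.97 on CAS, 10.90 to 11.84 on SPI and 11.93 to 12.57 on GEN. In a fit with the actin ratio as covariate, Clca1 was at -0.13 (SPI against GEN), 1.59 (GEN against CAS) and 1.46 (SPI against CAS). In SPI against GEN, Csap1 and Reg3b moved down, to -2.76 and -1.84, and the other genes moved up. In GEN against CAS, Pigr and Reg3b changed sign, to -0.17 and 0.003. Clca1 was lowest within SPI and within GEN on the array with the highest actin ratio. Within CAS it was lowest on replicate 2, which had the lowest ratio. The part that the share of epithelium, its secretory state or the actin ratio had in the differences of the 7 genes was not tested beyond these values.

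**Figure D4:**
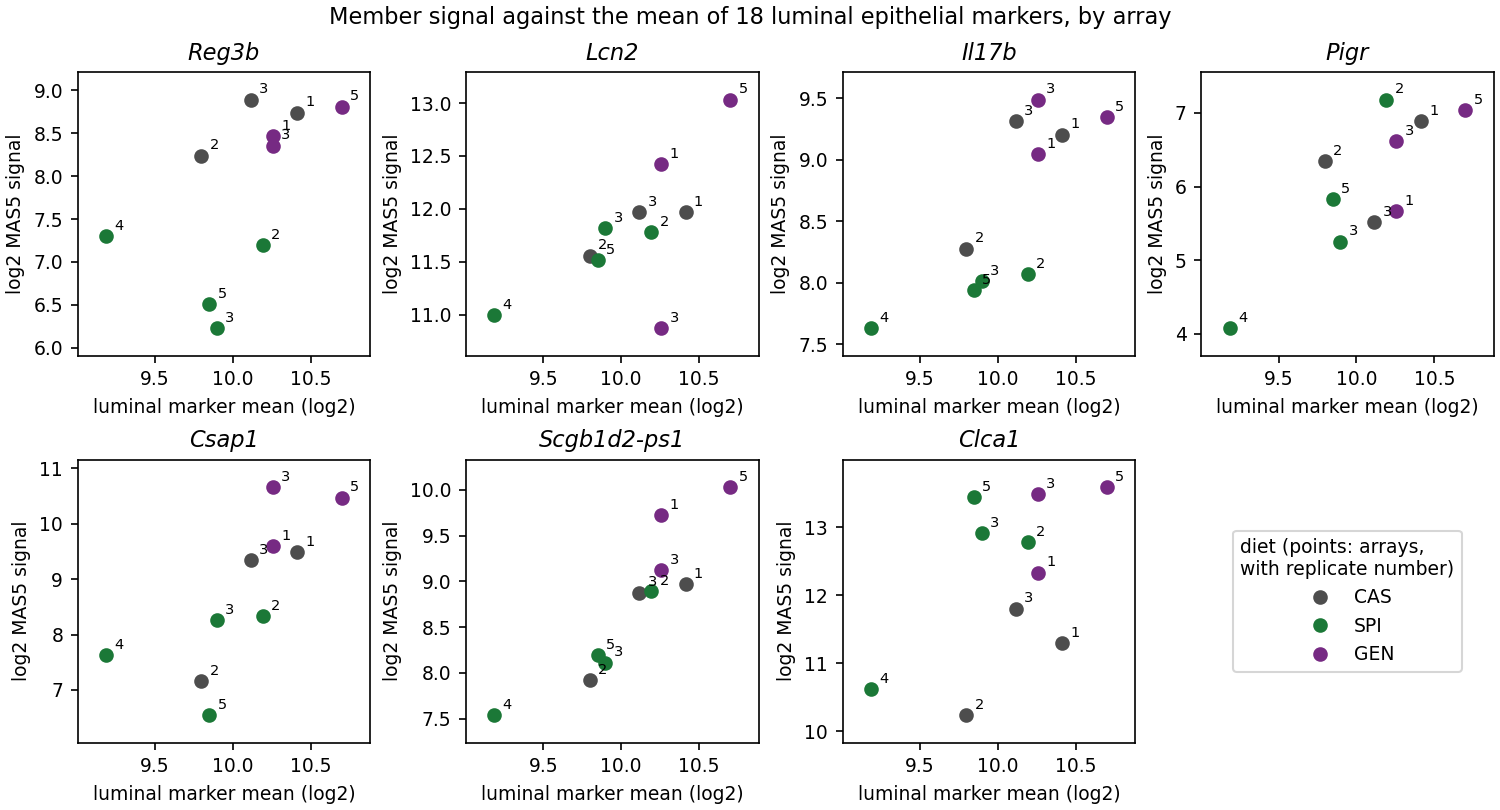
Log2 MAS5 signal of each of the 7 genes (vertical axis, 1 panel per gene) against the mean log2 signal of 18 luminal epithelial markers (horizontal axis) on the 10 arrays; colour is the diet and the number is the replicate. SPI replicate 4, at a luminal mean of 9.19, is the lowest SPI array for Lcn2, Il17b, Scgb1d2-ps1, Pigr and Clca1. For Reg3b all SPI arrays lie below all CAS and GEN arrays. The luminal means of SPI (9.19 to 10.19) overlap those of CAS (9.80 to 10.41) but not those of GEN (10.26 to 10.70).

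Markers of macrophages, fibroblasts and skeletal muscle had another order of diets, with the highest group mean on CAS, for skeletal muscle through CAS replicate 1 alone. Of 14 macrophage markers tested, 14 were lower on SPI than on CAS (median -0.65) and 11 lower on GEN than on CAS (median -0.36), with 0 passing the adjusted p of limma and 5 and 1 at an unadjusted p under 0.05. Their mean log2 signal was 8.88 to 9.99 on CAS, 8.52 to 9.43 on SPI and 8.71 to 9.66 on GEN, and their summed signal 9463 to 23401, 7090 to 13635 and 8342 to 15835. Of 14 fibroblast markers, 12 were lower on SPI than on CAS (median -0.47) and 13 lower on GEN than on CAS (median -0.36), with 0 passing the adjusted p of limma and 4 and 2 at an unadjusted p under 0.05. Their mean log2 signal was 11.32 to 12.08 on CAS, 10.64 to 11.65 on SPI and 11.06 to 11.43 on GEN, and their summed signal 78119 to 131010, 62879 to 106475 and 72745 to 92420. Of 7 skeletal muscle markers tested, 7 were lower on SPI than on CAS (median -0.42) and 6 lower on GEN than on CAS (median -0.51), with 0 passing and 1 and 0 at an unadjusted p under 0.05. Their mean log2 signal was 8.07 to 9.73 on CAS, 7.67 to 8.28 on SPI and 8.24 to 8.34 on GEN, and their summed signal 2539 to 7504, 2093 to 2847 and 2697 to 2964. The 9.73 was that of CAS replicate 1, while CAS replicates 2 and 3 were at 8.14 and 8.07, below every GEN array. Of 8 lymphocyte and lymph node markers tested, 7 were lower on SPI than on CAS (median -0.63) and 6 lower on GEN than on CAS (median -0.35). Among them 0 passed the adjusted p of limma, and 3 and 1 had an unadjusted p under 0.05. Of the 6 neutrophil markers on the array, which include S100a8 and S100a9, 0 passed the filter on dim signal. The part of these cell types in the signals of Lcn2 and the other genes was not tested.

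Relatives and partners of the 7 genes were mostly dim. The antimicrobial lectins Reg3a and Reg3g, paralogs of Reg3b, fell below the filter. Signals of Reg3a ran from 60.2 to 113.1 on the CAS arrays, from 14.6 to 63.2 on the SPI arrays and from 92.1 to 109.3 on the GEN arrays. Those of Reg3g ran from 83.7 to 128.2, from 59.2 to 113.3 and from 74.6 to 119.7, so that all diets overlapped. Cross-binding between the probe sets of these paralogs was not tested. Clca4, a relative of Clca1, and Lrp2, an endocytic receptor of lipocalin-2, were below the filter as well. Slc22a17, a cell surface receptor of lipocalin-2, averaged 278 ± 39.4 (SD over 3 CAS arrays), 246 ± 50.2 (SD over 4 SPI arrays) and 330 ± 45.8 (SD over 3 GEN arrays). Il17ra, a receptor chain shared by cytokines of the IL-17 family, had 527 ± 81.2, 425 ± 49.5 and 395 ± 76.2 in that order, a log2 difference of -0.42 ± 0.19 for GEN against CAS (limma, adjusted p = 0.825).

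No gene of 8 pathway lists passed the adjusted p of limma in any comparison. The background at an unadjusted p under 0.05 was 356 of 7119 genes tested in SPI against CAS. It was 420 in GEN against CAS and 556 in SPI against GEN. Of the 9 antimicrobial genes tested among 23 on the array, 6 were lower and 3 higher on SPI than on CAS, with a median of -0.52 against -0.01 over all genes tested. Rnase4, a secreted ribonuclease, had the smallest unadjusted p of these, with means of 2320 ± 851 on CAS, 1362 ± 257 on SPI and 1983 ± 316 on GEN and a log2 difference of -0.73 ± 0.22 for SPI against CAS (limma, adjusted p = 0.825). Lbp, which binds bacterial lipopolysaccharide, and Cd14, its coreceptor, showed -0.77 ± 0.29 and -0.72 ± 0.30 for SPI against GEN (limma, adjusted p = 0.563 and 0.590). Cd14 also stands in the luminal and macrophage lists. Of the 9, 1 had an unadjusted p under 0.05 in SPI against CAS, 0 in GEN against CAS and 3 in SPI against GEN.

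The mucus genes had no common direction. Of 5 tested among 17 on the array, 3 were higher and 2 lower on GEN than on CAS (median 0.20 against -0.02 over all genes), and 2 were higher and 3 lower on SPI than on CAS (median -0.03). At an unadjusted p under 0.05 there was 1 in each of these comparisons and 0 in SPI against GEN, where 4 of 5 were lower on SPI (median -0.23). The membrane mucin Muc1, which also stands in the milk list, was at 298 ± 56.1 on CAS, 376 ± 110 on SPI and 518 ± 138 on GEN, a log2 difference of 0.78 ± 0.26 for GEN against CAS (limma, adjusted p = 0.825). Muc4, another membrane mucin, differed by -0.75 ± 0.27 for SPI against CAS (limma, adjusted p = 0.987), and the trefoil factor Tff1 by -0.50 ± 0.30 for GEN against CAS (limma, adjusted p = 0.825). The goblet cell mucin Muc2 was below the filter, with means of 123 on CAS, 132 on SPI and 116 on GEN. The difference between Clca1 and these genes was not tested.

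Only 2 of 19 genes of the secretoglobin and salivary list on the array were tested. The water channel Aqp5 had its lowest mean on GEN, where Csap1 and Scgb1d2-ps1 had their highest, at 478 ± 366 on CAS, 195 ± 151 on SPI and 110 ± 50.5 on GEN, a log2 difference of -1.87 ± 0.69 for GEN against CAS (limma, adjusted p = 0.825). The protease inhibitor Cst3 differed by 0.29 ± 0.14 for SPI against CAS (limma, adjusted p = 0.987). Other salivary genes on the array, such as Smr3b, Pip and Amy1, were below the filter.

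Of 23 tested genes of IL-17 cytokines, receptors and signalling, 13 were higher and 10 lower on SPI than on CAS (median 0.11), and 11 higher and 12 lower on GEN than on CAS (median -0.07), with 2 and 1 at an unadjusted p under 0.05 and 1 in SPI against GEN. The transcription factor gene Cebpd differed by 0.43 ± 0.18 for SPI against CAS (limma, adjusted p = 0.987), and the NF-kB inhibitor gene Nfkbia by 0.25 ± 0.10 for SPI against GEN (limma, adjusted p = 0.587). Of 9 tested genes of the IL-6 and IL-22 receptors with Stat3, 6 were higher on SPI than on CAS (median 0.05) and 3 higher on GEN than on CAS (median -0.03), with 0 and 2 at an unadjusted p under 0.05 and 2 in SPI against GEN. The shared receptor chain Il6st was higher on SPI than on GEN by 0.62 ± 0.17 (limma, adjusted p = 0.461), and the kinase gene Jak2 differed by -0.55 ± 0.20 (limma, adjusted p = 0.563). Tyk2, a related kinase, differed by -0.29 ± 0.19 for SPI against CAS (limma, adjusted p = 0.987).

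Of 9 acute phase genes tested, 5 were higher on SPI than on CAS (median 0.05) and 4 higher on GEN than on CAS (median -0.11), with 0 at an unadjusted p under 0.05 in either and 3 in SPI against GEN. The protease inhibitor Serpina3n differed by 1.47 ± 0.56 for SPI against GEN (limma, adjusted p = 0.563), with SPI arrays from 1058 to 6945 and GEN arrays from 748 to 961. Itih3 and Lrg1, plasma glycoproteins, differed by 0.50 ± 0.19 and 0.46 ± 0.18 in the same comparison (limma, adjusted p = 0.563 for both). Of 5 tested genes of immunoglobulin A transport and plasma cells, 3 were higher on SPI than on CAS (median 0.14) and 2 higher on GEN than on CAS (median -0.22), with 1 at an unadjusted p under 0.05, in GEN against CAS. Sdc1, a plasma cell and epithelial proteoglycan, differed by 0.33 ± 0.15 for GEN against CAS (limma, adjusted p = 0.825), Xbp1 by 0.38 ± 0.23 for SPI against GEN (limma, adjusted p = 0.672) and Prdm1 by 0.29 ± 0.20 for SPI against CAS (limma, adjusted p = 0.987).

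Of 6 relatives and iron partners of lipocalin-2 tested, 6 were higher on GEN than on CAS (median 0.22 against -0.02 over all genes). Against GEN, 5 were lower on SPI (median -0.44 against 0.01 over all genes). Against CAS, 3 were higher and 3 lower on SPI (median -0.01, as over all genes). In each of the 3 comparisons, 2 had an unadjusted p under 0.05. The lipocalin Apod had 217 ± 44.4 on CAS, 353 ± 27.9 on SPI and 546 ± 75.3 on GEN, a log2 difference of 1.34 ± 0.19 for GEN against CAS with the smallest adjusted p of that comparison (limma, 0.0642). The transferrin receptor gene Tfrc differed by 1.10 ± 0.20 for GEN against CAS (limma, adjusted p = 0.296). Both were also higher on SPI than on CAS, Apod by 0.72 ± 0.17 and Tfrc by 0.75 ± 0.19 (limma, adjusted p = 0.582 for both). The iron exporter Slc40a1 differed by -0.60 ± 0.26 for SPI against GEN (limma, adjusted p = 0.606). Lcn2 itself overlapped between all diets.

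The genes whose log2 signal was most like that of each of the 7 over the 10 arrays are given as a description, by Pearson r among 8063 other probe sets with a single symbol (8064 for Pigr), and these values include the differences between diets. For Reg3b they were Rprm (0.94), Mrpl49 (0.93) and Gne (0.91). For Lcn2 they were Irak1 (0.95), Fasn (0.94) and Prkci (0.93), and for Il17b Nras (0.95), Gstt3 (0.95) and Mrpl44 (0.92). Csap1 was most like Ssr2 (0.92), Apool (0.92) and Idh1 (0.91), and Scgb1d2-ps1 most like Plpp2 (0.95), Apeh (0.95) and the milk protein gene Wap (0.94). Pigr was most like Tmem165 (0.90), A3galt2 (0.89) and Madd (0.88). Clca1 was most like Ndufb10 (0.96), Ndufv2 (0.93) and Ndufa4 (0.91). Among so many probe sets and 10 arrays, values of this size also arise from a few arrays that are high or low together. Ndufb10, for example, moved within a narrow range, from a mean of 1154 on CAS to 1307 on SPI and 1372 on GEN.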

How the data were processed

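RNA of rat mammary gland, in pools of 2 animals, was measured on 10 Affymetrix RAE230 arrays. The values deposited by the authors are linear signal intensities, and the submitters' processing notes name MAS5 without a version. Means after trimming 2% of probe sets at each end were near 500 on every array, so differences in total RNA are not visible.

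Control probe sets were left out, signals under 1 were set to 1, log2 was taken, and the lowest 40% of mean log2 signal was left out, leaving 9520 probe sets. Symbols came from the platform annotation: 12783 of 15866 probe sets had 1 symbol, 312 several and 2771 none there, and only the first kind was used to name genes. A gene of a list with several probe sets was represented by the brightest. Diets were compared with limma 3.58.1 in R 4.3.3 (eBayes with an intensity trend, Benjamini-Hochberg over 9520), all 10 arrays in 1 fit, tested on simulated data. The values of Pigr come from the same fit over all probe sets. The fit has no replicate block, since the labels do not say what a replicate number marks. Precision is limited by the number of arrays.

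The members, lists and tests were chosen with earlier results of these data known. Named genes are the members, the 3 probe sets most like each, the 3 genes of each pathway list with the smallest p, and direct partners; Krt8, Krt18, Epcam, Esr1, Csn2, Lalba, Muc2, Smr3b, Pip and Amy1 were named from the lists in addition, after their values were seen. Alternatives changed the filter, floor, normalization, variance model, replicate block, covariates and arrays. Promoters come from RefSeq on GRCr8.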

Additional observations from a re-analysis of the deposited data

Results flagged for a closer look

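Among the values reported, 1 of 55 groups of 4 arrays held an array far from the other 3 by Dixon's test. The log2 signal of Nfkbia, an inhibitor of NF-kB, was 13.93 on SPI replicate 4 against 13.74 to 13.77 on the other SPI arrays. The gap was 0.871 of the whole range, above the 95% critical value for 4 values. Chance flags about 1 in 20 such groups. SPI replicate 4 also had the highest beta-actin ratio, 7.77.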

How the results depend on the processing

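The counts of probe sets with an adjusted p under 0.05 stayed at 0 in all 3 comparisons under no filter, a filter of 20%, a floor of 32, quantile normalization, median centring, no intensity trend, no eBayes, the actin ratio as covariate and the replicate block. With the luminal marker mean as covariate, chosen after seeing the data, SPI against CAS had 2 (Car2 and Fabp3). Leaving out 1 array gave 0 to 2 for SPI against CAS (RT1-Bb and RT1-CE16 without SPI replicate 2), 0 to 1 for GEN against CAS (Apod without CAS replicate 1) and 0 to 1 for SPI against GEN: Il17b, a gene chosen on these values, without CAS replicate 2, an unnamed probe set without CAS replicate 3, RT1-CE16 without SPI replicate 2 and Rpl37a without GEN replicate 5. The log2 difference of Il17b stayed at -1.38 there, since CAS arrays enter it only through the spread.

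At an unadjusted p under 0.05, no filter gave 776, 884 and 1213 probe sets and leaving out 1 array 296 to 726, 354 to 752 and 487 to 1091. The replicate block gave 270, 416 and 286 with 0 calls each; same-numbered arrays correlated between -0.183 and 0.155 in their deviations, so the numbers were not taken as pairs. The luminal covariate gave 302 in SPI against GEN. Median centring moved the share of higher ones from 31.8% to 63.3% in SPI against CAS and from 46.5% to 69.2% in SPI against GEN. No pair of members passed an adjusted p of 0.05 under quantile normalization or a floor of 32 (0 of 21 each). The count was also 0 without any 1 array, but there the smallest possible p is 0.00347 or 0.00463, so a lone pair among 21 could not have passed and this count says nothing about stability. Of 21 log2 differences of the 7 genes, 12 kept their sign under 16 alternatives and 9 did not; those of Clca1 for SPI against GEN reached 0.01 with the replicate block. The cause of these changes was not tested.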
